A study of Mus musculus with 10 samples.

Results

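The transcription factors that give hair cells and supporting cells of the inner ear their identity were followed in the cochlea of aged mice with and without nicotinamide riboside (NR). The set holds 10 genes, taken by symbol from the 54532 genes in the count files. Atoh1, Pou4f3, Gfi1, Ikzf2, Barhl1 and Lhx3 are factors of hair cells. Sox2, Prox1 and Hey2 are factors of supporting cells and of the epithelium from which both cell types arise. Lmx1a, a factor of nonsensory epithelium, was listed with these, and the 4 together are called supporting cell factors below. All 10 were found, and all 10 were among the 18329 genes with enough reads to be tested.

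Hair cells are the mechanosensory cells of the organ of Corti, and supporting cells surround and separate them. Both arise from progenitors that express Sox2. Atoh1 starts the hair cell program in some of these cells, Notch signaling from the new hair cell holds its neighbors in the supporting cell state, and Pou4f3, Gfi1, Barhl1 and Lhx3 then act in the differentiation and upkeep of hair cells. In mammals these cells are not replaced once lost, so the mature cochlea is known for keeping a small, fixed stock of them.

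RNA was prepared from the cochlea of 12-month-old mtKeima mice, a transgenic strain on a mixed background whose mitochondria carry a pH-dependent fluorescent protein. The study's methods state that the mice were wild type at Cdh23 and did not carry the Nnt mutation of C57BL/6J. In the NR-treated group (n = 5), NR was dissolved in the drinking water at 7 mg/ml (24 mM) when the mice were 2 months old and was kept there for 10 months. The non-treated group (n = 5, "Veh" in the labels) had regular drinking water over the same time. The question was which cochlear transcripts differ after the treatment. One library was made per mouse.

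Total counts were 17060379 to 22931581 per NR-treated mouse and 20004667 to 24419230 per non-treated mouse. The labels give the sex as female and the methods as male. Xist, the RNA of the inactive X chromosome, lay between 0.0882 and 0.405 CPM (counts scaled to a fixed library size) and the Y-linked gene Ddx3y between 64.5 and 85.0 CPM over the 10 mice. Both are levels of male mice, the sex that the methods state. Hair cell, supporting cell and strial marker genes were all detected, and so were markers of bone marrow and muscle.

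Levels below are CPM, the count scaled to a library size from the TMM method, and fold changes and p-values are from edgeR's quasi-likelihood test over 18329 genes, with Benjamini-Hochberg adjustment for adjusted p. At an unadjusted p of 0.05 this test called 4.83% of all genes higher and 4.88% lower in NR-treated cochlea, and at an adjusted p of 0.05 it called 0%. The smallest adjusted p was 0.224. The exact two-sided permutation test over all labelings of the mice cannot give a p below 0.00794.

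In the mm10 assembly, Atoh1 (ENSMUSG00000073043) is a single-exon gene at chr6:64729125-64731245 on the plus strand. The other hair cell factors except Pou4f3 are on minus strands: Gfi1 (ENSMUSG00000029275) at chr5:107716657-107726036, Ikzf2 (ENSMUSG00000025997) at chr1:69531214-69687245, Barhl1 (ENSMUSG00000026805) at chr2:28907679-28916668 and Lhx3 (ENSMUSG00000026934) at chr2:26200212-26208289. Of the supporting cell factors, Sox2 (ENSMUSG00000074637) is a single-exon gene at chr3:34650405-34652461, plus strand, and Lmx1a (ENSMUSG00000026686) lies at chr1:167689237-167848741, plus strand. Prox1 (ENSMUSG00000010175) lies at chr1:190118035-190170714 and Hey2 (ENSMUSG00000019789) at chr10:30832359-30842801, both on the minus strand.

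Promoter sequences are shown for 3 hair cell factors whose levels moved together over the mice (Gfi1, Barhl1 and Lhx3) and for Sox2, which did not move with them. They are RefSeq windows of GRCm38.p6, the same build as mm10, of 300 bases around the first start listed, with E-boxes in capitals. An E-box, CANNTG, is the motif that factors of the class of Atoh1 bind. The windows are chr5:107725756-107726055 for Gfi1, chr2:28916619-28916918 for Barhl1 and chr2:26208200-26208499 for Lhx3, all on the minus strand, and chr3:34649745-34650044 for Sox2, on the plus strand. Their starts lie 231, 0, 40 and 410 bases from the gene starts in the files.
Gfi1: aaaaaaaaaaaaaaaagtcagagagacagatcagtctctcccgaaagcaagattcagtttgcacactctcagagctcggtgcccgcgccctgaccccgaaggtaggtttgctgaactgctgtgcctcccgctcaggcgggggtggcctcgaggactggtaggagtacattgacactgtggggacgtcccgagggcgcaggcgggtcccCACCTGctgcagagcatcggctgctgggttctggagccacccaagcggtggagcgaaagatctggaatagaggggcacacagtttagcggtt
Barhl1: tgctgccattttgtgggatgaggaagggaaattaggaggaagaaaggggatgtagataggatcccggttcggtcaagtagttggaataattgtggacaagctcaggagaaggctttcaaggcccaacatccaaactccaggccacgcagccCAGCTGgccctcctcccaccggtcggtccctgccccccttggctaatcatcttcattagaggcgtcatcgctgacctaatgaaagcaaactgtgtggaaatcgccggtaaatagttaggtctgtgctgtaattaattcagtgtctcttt
Lhx3: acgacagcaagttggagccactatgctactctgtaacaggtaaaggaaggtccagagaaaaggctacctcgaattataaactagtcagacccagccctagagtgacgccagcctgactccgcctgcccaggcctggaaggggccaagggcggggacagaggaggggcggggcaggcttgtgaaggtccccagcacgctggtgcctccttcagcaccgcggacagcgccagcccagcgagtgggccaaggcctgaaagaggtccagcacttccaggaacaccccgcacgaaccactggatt
Sox2: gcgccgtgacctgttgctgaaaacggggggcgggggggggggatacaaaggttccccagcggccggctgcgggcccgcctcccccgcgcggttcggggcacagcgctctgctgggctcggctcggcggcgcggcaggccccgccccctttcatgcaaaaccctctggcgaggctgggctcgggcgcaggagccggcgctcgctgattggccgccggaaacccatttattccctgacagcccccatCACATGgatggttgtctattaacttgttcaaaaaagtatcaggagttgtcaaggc
Gfi1, Barhl1 and Sox2 had 1 E-box each and Lhx3 had 0 in these windows, and 72.3% of 32851 mouse promoters of this length held at least 1. The box of Barhl1 was CAGCTG, a form found in 16.3% of promoters, and Barhl1 was also the only one of the 4 with TAATTA, a homeodomain motif found in 5.29%. Another form of E-box, CACGTG, is in 7.15% of promoters and was in 0 of these 4. The same was so for a motif of the GFI1 protein, AAATCA, in 13.997% of promoters, and for a motif of SOX proteins, CATTGT, in 12.6%. Both strands were searched. These counts depend on the start used, as Gfi1, Barhl1 and Lhx3 each had another listed start, whose window is not shown. Those windows held 1, 2 and 1 E-boxes. That of Barhl1 also held 1 AAATCA and 1 CATTGT, while those of Gfi1 and Lhx3 held 0 of either. GC content was 58.0% for Gfi1, 50.3% for Barhl1, 61.0% for Lhx3 and 66.3% for Sox2, where the median of all promoters was 52.7%.

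Compared per length, as TPM, counts divided by exon length and scaled to the same sum in each mouse, the levels of the 10 factors spanned a wide range, from 50.5 ± 7.46 TPM (SD, n = 10 mice) for Sox2 to 0.669 ± 0.295 TPM for Atoh1. Lmx1a followed Sox2 at 31.2 ± 12.7 TPM, then came Gfi1 at 22.7 ± 7.53 and Pou4f3 at 15.5 ± 6.06. Hey2 had 13.03 ± 1.34 TPM, Prox1 9.28 ± 2.52 and Lhx3 7.79 ± 3.40. Barhl1 had 3.12 ± 1.28 TPM and Ikzf2 2.204 ± 0.440.

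The step from one gene to the next held in 10 of 10 mice for Gfi1 above Pou4f3, Hey2 above Prox1, Lhx3 above Barhl1 and Ikzf2 above Atoh1. Sox2 lay above Lmx1a, Lmx1a above Gfi1 and Barhl1 above Ikzf2 in 8 of 10 mice. Pou4f3 and Hey2, and likewise Prox1 and Lhx3, kept their order in 6 of 10 mice. For 4 pairs of neighbors the mean gap was smaller than its SD over mice. These were Lmx1a and Gfi1 (8.48 against 9.12 TPM) and Pou4f3 and Hey2 (2.44 against 5.98). The others were Prox1 and Lhx3 (1.48 against 3.29) and Barhl1 and Ikzf2 (0.920 against 1.06). This SD is the spread between mice and not the error of the mean gap, and the gaps were not tested.

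**Figure D1:**
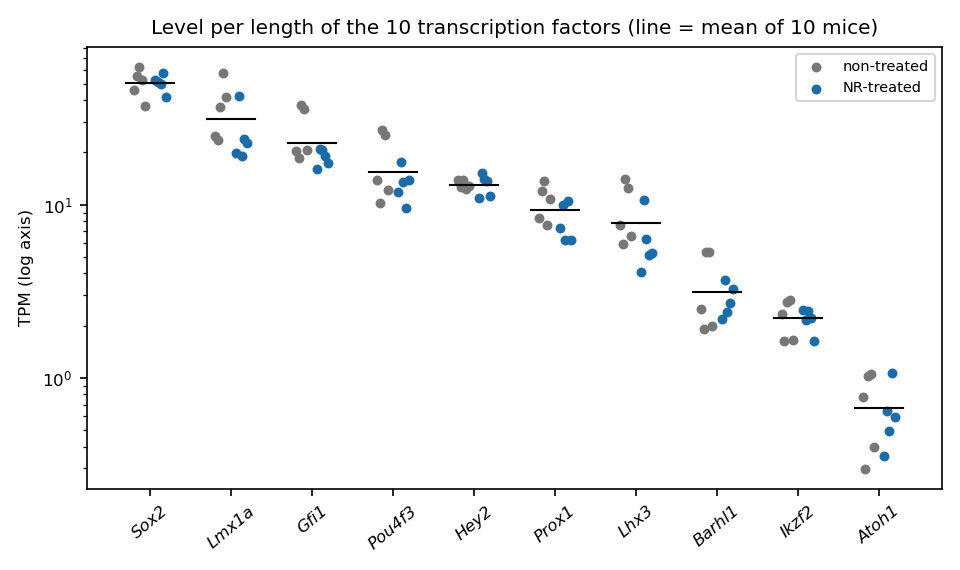
TPM of each transcription factor in each of the 10 mice, on a log axis, with non-treated mice in grey, NR-treated mice in blue and a line at the mean of 10 mice. Sox2 stands highest at 50.5 TPM and Atoh1 lowest at 0.669 TPM, and the points of Hey2 lie closest together.

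NR-treated and non-treated mice were then compared factor by factor. All 10 factors had a lower mean level in NR-treated cochlea by sign, with a median log2 fold change of -0.33 over the list, where 52.9% of all tested genes were lower by sign and their median was -0.01. At an unadjusted p of 0.05 the call was made for 1 of 10, Gfi1, beside a background of 4.88% for lower genes, and for 0 of 10 in the higher direction. At an adjusted p of 0.05, 0 of 10 were called. The groups overlapped for each of the 10 factors, where 1.65% of all genes had groups that did not overlap.

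Gfi1 encodes a zinc finger repressor that keeps neuronal genes silent in hair cells. Its level was 16.6, 21.97, 21.7, 19.9 and 17.8 CPM in NR-treated mice 1 to 5, and 21.7, 21.1, 37.9, 36.3 and 21.5 CPM in non-treated mice 1 to 5. Non-treated mice 3 and 4 stood far above the other 8 mice, which lay within 16.6 to 21.97 CPM, and 3 NR-treated mice were below every non-treated one. NR-treated mice had a mean of 19.6 ± 2.36 CPM (SD, n = 5), against 27.7 ± 8.59 CPM (SD, n = 5) without treatment. On the log2 scale the fold change was -0.50 (standard error 0.19, edgeR unadjusted p = 0.0224, adjusted p = 0.473). The exact permutation test on log2 CPM gave p = 0.0714. Without non-treated mouse 3 the log2 fold change was -0.34 (edgeR, unadjusted p = 0.0678), without mouse 4 it was -0.38 (unadjusted p = 0.0664), and without both it was -0.12 (unadjusted p = 0.270). With both left out, the test called 4.11% of all genes higher, 5.58% lower and 0 of the 10 factors. Atoh1 did not pass the read filter there, so its value is from the fit of all genes with a read. The call of Gfi1 was also lost without NR-treated mouse 1 (-0.44, edgeR unadjusted p = 0.0562) or 5 (-0.46, unadjusted p = 0.0524).

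Pou4f3 (ENSMUSG00000024497), on the plus strand at chr18:42394539-42397249, encodes a POU-domain factor without which hair cells die. It had 9.06, 13.6, 10.5, 7.42 and 10.5 CPM in NR-treated mice 1 to 5 and 10.8, 8.53, 20.2, 19.0 and 9.38 CPM in non-treated mice 1 to 5. As for Gfi1, non-treated mice 3 and 4 were the highest of all 10, and the other 3 non-treated mice lay inside the range of the NR-treated ones. Between the groups the log2 fold change was -0.41 (standard error 0.26, edgeR adjusted p = 0.635), and without these mice it was 0.10.

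Barhl1, a homeobox factor needed for the long-term survival of hair cells, showed the same picture at a lower level. NR-treated mice 1 to 5 had 2.75, 4.70, 3.07, 3.49 and 4.05 CPM, and non-treated mice 1 to 5 had 3.23, 2.65, 6.596, 6.61 and 2.55 CPM. Only non-treated mice 3 and 4 exceeded the highest NR-treated mouse. For Barhl1 the log2 fold change was -0.26 (standard error 0.31, edgeR adjusted p = 0.786) with all mice and 0.37 (standard error 0.21, unadjusted p = 0.118) without those 2.

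Lhx3, a LIM-homeobox factor of hair cells, had 3.9997, 10.6, 6.32, 5.11 and 5.09 CPM in NR-treated mice 1 to 5. In non-treated mice 1 to 5 it had 7.69, 6.42, 13.6, 12.1 and 6.55 CPM. Apart from mouse 2, every NR-treated mouse lay below every non-treated one. The log2 fold change was -0.57 (standard error 0.30, edgeR adjusted p = 0.559). It was -0.84 without NR-treated mouse 2 (edgeR, unadjusted p = 0.00861) and -0.14 without non-treated mice 3 and 4.

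Ikzf2, the gene of Helios, a zinc finger factor of outer hair cell maturation, differed little between the groups. Its level was 9.25, 8.19, 9.26, 8.47 and 6.08 CPM in NR-treated mice 1 to 5 and 8.99, 6.69, 10.0, 10.41 and 6.32 CPM in non-treated mice 1 to 5. Non-treated mice 3 and 4 were again the 2 highest, but by a small margin. Its fold change was -0.04 on the log2 scale, with a 95% interval from -0.42 to 0.34 (edgeR adjusted p = 0.954). Its direction turned in 5 of the alternatives tried: without NR-treated mouse 5, without non-treated mouse 3, mouse 4 or both, and with the covariate described below.

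Atoh1, the basic helix-loop-helix factor that starts hair cell formation and is known to be low in the mature cochlea, was near the limit of detection. NR-treated mice 1 to 5 had 0.241, 0.447, 0.346, 0.742 and 0.405 CPM, and non-treated mice had 0.546, 0.224, 0.688, 0.705 and 0.279 CPM. These values rest on 5 to 17 reads per mouse, and the exact Poisson 95% interval of 5 reads runs from 1.62 to 11.7, for counting error only. With so few reads, the log2 fold change of -0.16 had a 95% interval from -1.03 to 0.71 (edgeR adjusted p = 0.908), which includes a 2-fold lower level.

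Among the factors of supporting cells, Sox2, an HMG-box factor that marks progenitors and later supporting cells, and is also made by glia, had 34.7, 34.3, 33.7, 39.2 and 27.6 CPM in NR-treated mice 1 to 5. Non-treated mice 1 to 5 had 31.3, 40.1, 40.5, 34.4 and 24.9 CPM. The groups covered nearly the same range, and non-treated mouse 4, among the highest for the hair cell factors, was in the middle. Sox2 had a log2 fold change of -0.01 with a 95% interval from -0.31 to 0.28 (edgeR adjusted p = 0.981).

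Hey2, a helix-loop-helix repressor of pillar cells, the supporting cells between inner and outer hair cells, had 16.1, 22.95, 21.3, 20.6 and 16.6 CPM in NR-treated mice. In non-treated mice it had 21.05, 20.6, 20.1, 17.9 and 19.3 CPM, the narrowest spread of the 10 factors (coefficient of variation 6.25%). For Hey2 it was -0.02 with a 95% interval from -0.26 to 0.22 (edgeR adjusted p = 0.963). The direction of Sox2 and Hey2 turned when libraries were scaled by total count alone (0.012 and 0.0052).

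Prox1, a homeobox factor of Deiters' and pillar cells and also of lymphatic endothelium, had 19.8, 27.4, 17.3, 29.1 and 16.8 CPM in NR-treated mice 1 to 5. Non-treated mice 1 to 5 had 23.4, 35.4, 36.6, 20.3 and 29.7 CPM. Here non-treated mouse 4 was the lowest of its group, while mouse 3 was the highest of all. The log2 fold change was -0.40 (standard error 0.21, edgeR adjusted p = 0.558). Unlike the values of Pou4f3 and Barhl1, it did not move toward 0 without non-treated mice 3 and 4 (-0.41, edgeR unadjusted p = 0.0832). It passed an unadjusted p of 0.05 without NR-treated mouse 4 (-0.51, edgeR unadjusted p = 0.0384) or without non-treated mouse 4 alone (-0.50, unadjusted p = 0.0312).

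Lmx1a, a LIM-homeobox factor of nonsensory epithelium, had 21.8, 47.2, 21.4, 26.6 and 24.7 CPM in NR-treated mice 1 to 5 and 28.1, 28.5, 39.6, 61.8 and 46.3 CPM in non-treated mice 1 to 5. The 4 NR-treated mice other than mouse 2 were below every non-treated mouse, and mouse 2 was second only to non-treated mouse 4. Its log2 fold change was -0.53 (standard error 0.27, edgeR adjusted p = 0.550), and the exact permutation test gave p = 0.103. Without NR-treated mouse 2 it was -0.78 (edgeR, unadjusted p = 0.00514), and 0.05 was also passed without non-treated mouse 1 (-0.63, unadjusted p = 0.0406) or 2 (-0.62, unadjusted p = 0.0484). The Wald test of DESeq2 gave -0.53 with an unadjusted p = 0.0498, so that 2 of 10 factors, Lmx1a and Gfi1, were called lower by DESeq2 beside 3.08% of its genes.

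**Figure D2:**
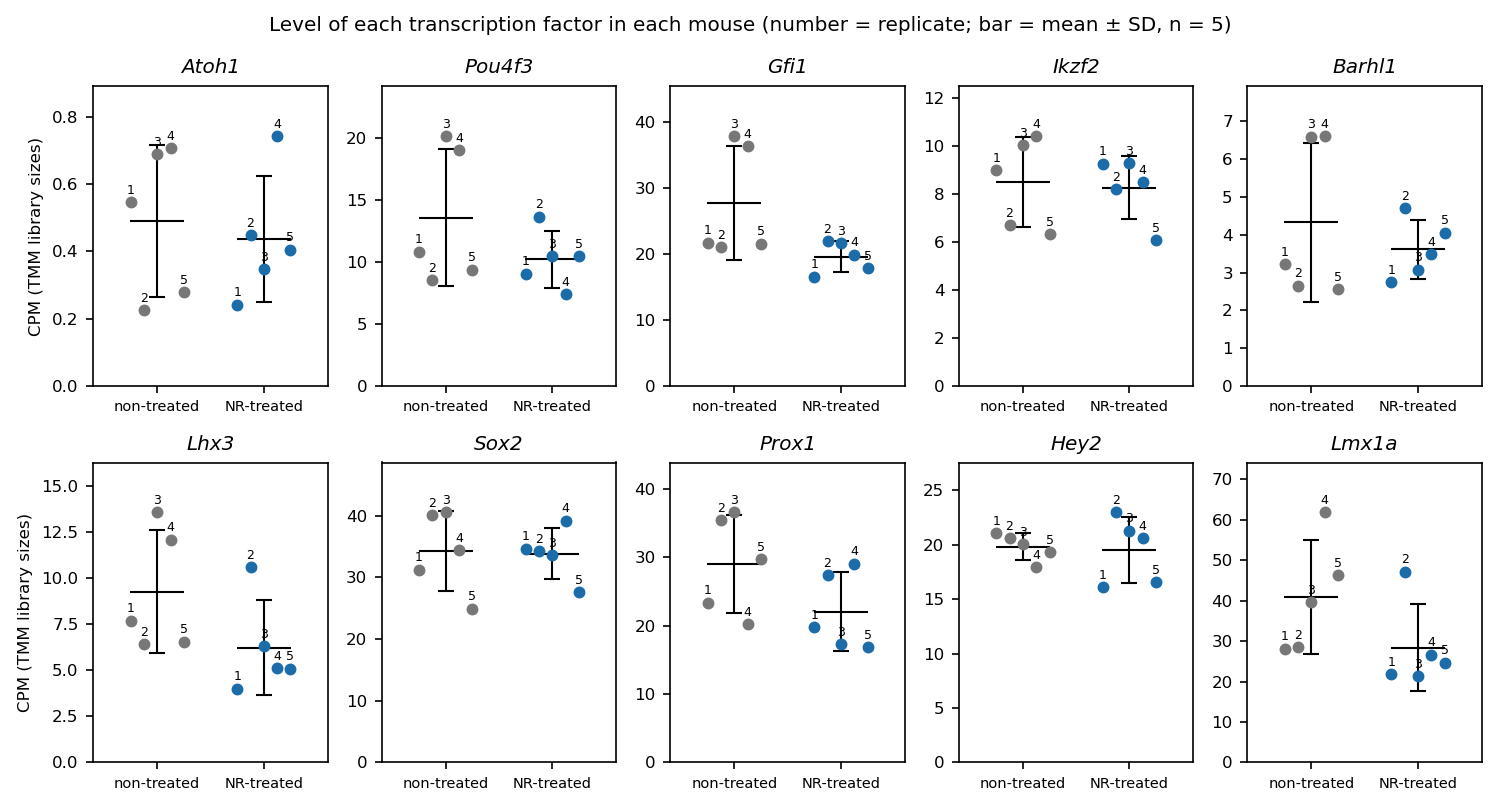
CPM of each factor in each mouse (numbers are replicate numbers, bars are mean ± SD, n = 5 per group). Non-treated mice 3 and 4 are the 2 highest of the 10 mice for Pou4f3, Gfi1, Ikzf2, Barhl1 and Lhx3, and the groups overlap in every panel.

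**Figure D3:**
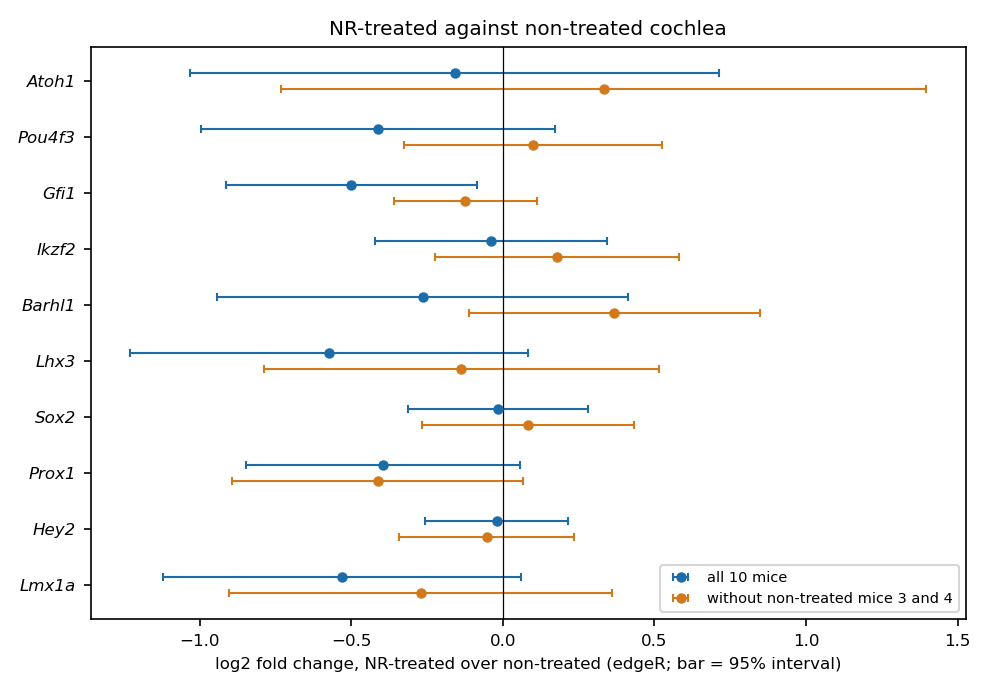
Log2 fold change of each factor, NR-treated over non-treated, from edgeR with its 95% interval, with all 10 mice in blue and without non-treated mice 3 and 4 in orange. With all mice only the interval of Gfi1 (-0.91 to -0.09) lies off 0, and without those mice every interval crosses 0. Without those mice, the value of Atoh1 is from the fit of all genes with a read.

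Non-treated mice 3 and 4 were the 2 highest mice for 5 of the 6 hair cell factors. They were so for 0 of the 4 supporting cell factors, Lmx1a included. The background of this order over all tested genes was 11.5%. Because these mice stood apart, the levels of cell markers were set beside the factors. The mean log2 CPM of 23 hair cell effector genes, which encode parts of the hair bundle, the ribbon synapse and the cholinergic receptor, was 3.31, 3.97, 3.54, 3.41 and 3.39 in NR-treated mice 1 to 5. In non-treated mice 1 to 5 it was 3.50, 3.26, 4.41, 4.63 and 3.43, so the same mice stood highest. These 2 mice were also the highest for supporting cell markers (6.84 and 6.84) and strial markers (6.76 and 7.52). The part of tissue composition in these levels was not tested. In whole cochlea, fewer hair cells and less RNA per hair cell cannot be told apart either.

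Pou4f3, Barhl1, Gfi1 and Lhx3 followed this level over the 10 mice. Each relation was computed against the effector level and against the level of 15 supporting cell markers, and permutation p-values were adjusted over these 20 relations. Pearson's r with the effector level was 0.949 for Pou4f3 (permutation test, adjusted p = 0.00255), with a Spearman's rho of 0.830 (permutation test, adjusted p = 0.0237). Barhl1 had an r of 0.924 (permutation test, adjusted p = 0.00296) and a rho of 0.709 (adjusted permutation p = 0.0692). For Gfi1 the r was 0.919 and the rho 0.903 (permutation tests, adjusted p = 0.00377 and 0.0170), and for Lhx3 they were 0.894 and 0.806 (permutation tests, adjusted p = 0.00255 and 0.0294).

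Non-treated mice 3 and 4 were also the 2 farthest from the median effector level. With these left out, r over the other 8 mice was 0.815 for Pou4f3, 0.809 for Lhx3 and 0.720 for Barhl1, and 0.501 for Gfi1. Leaving out these mice also narrows the range of effector levels, which lowers r. Around the group means, r was 0.942 for Pou4f3, 0.949 for Gfi1, 0.940 for Barhl1 and 0.892 for Lhx3. All points share their library and its scaling. Bone marrow myeloid markers were lowest in the 3 mice with the highest effector level, at a mean log2 CPM of 6.03 in NR-treated mouse 2 and 6.27 and 6.98 in non-treated mice 3 and 4, and at least 7.16 in the other mice, and their part in these relations was not tested.

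Lmx1a had an r of 0.752 with the effector level (permutation test, adjusted p = 0.0247) but a rho of 0.539 (permutation test, adjusted p = 0.175), and r was 0.571 without the 2 mice. Atoh1 and Ikzf2 had r of 0.653 and 0.623 (permutation tests, adjusted p = 0.0662 and 0.0736), which became 0.349 and 0.252. Sox2, Prox1 and Hey2 had r of 0.263, 0.116 and 0.091, with adjusted permutation p-values of 0.561, 0.777 and 0.813. Without the 2 mice their r was -0.058, 0.0037 and 0.623, so the low value of Hey2 depended on those mice. The difference between the correlations of the hair cell and supporting cell factors was not tested.

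**Figure D4:**
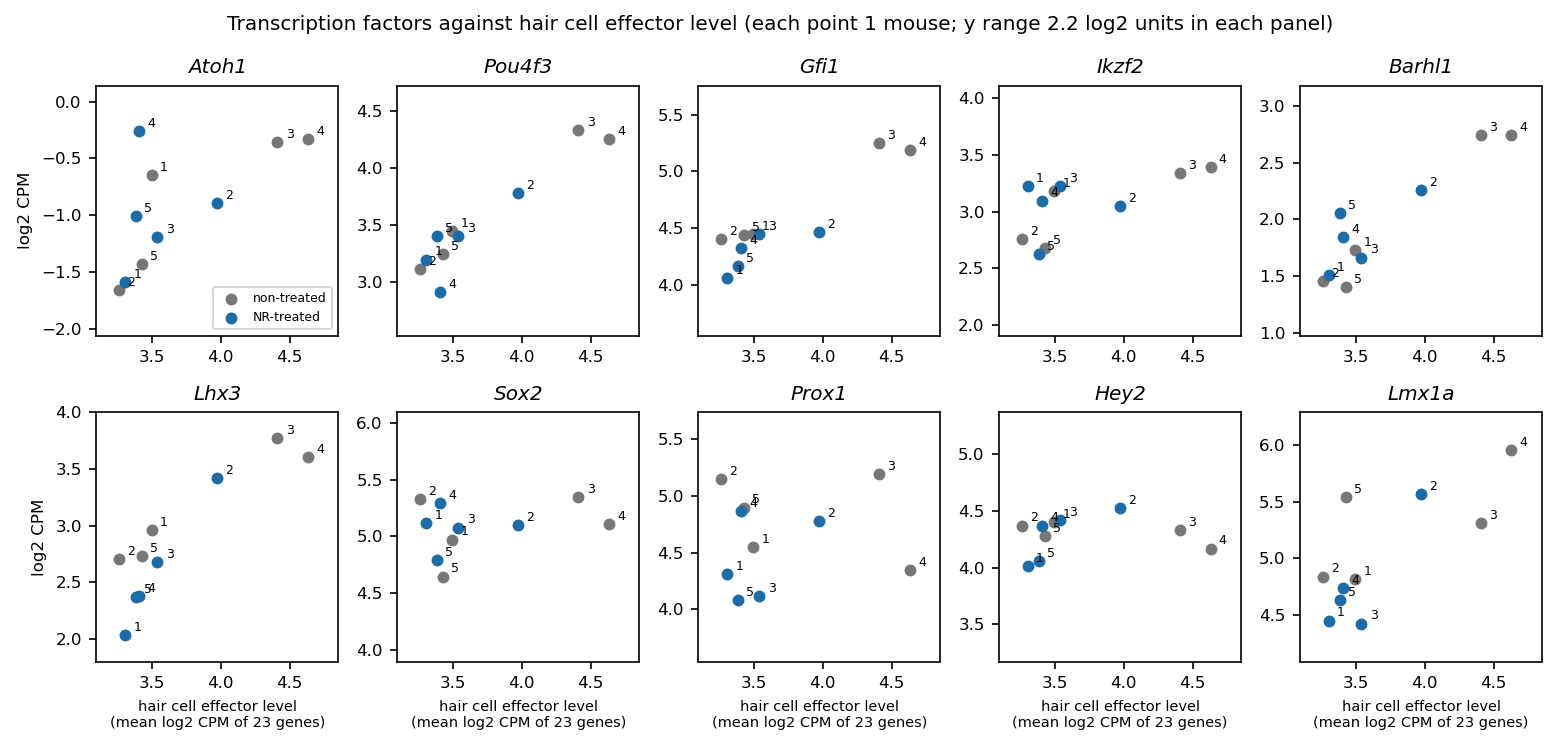
Log2 CPM of each factor against the mean log2 CPM of 23 hair cell effector genes, 1 point per mouse, non-treated in grey and NR-treated in blue, with numbers for replicates. The points of Pou4f3, Gfi1, Barhl1 and Lhx3 climb toward non-treated mice 3 and 4 at effector levels of 4.41 and 4.63, while those of Sox2, Prox1 and Hey2 do not.

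Sox2, Prox1 and Hey2 were also set beside the supporting cell markers, which include gap junction, tectorial membrane and receptor genes. The mean log2 CPM of these markers was 5.67 to 6.29 in NR-treated and 5.90 to 6.84 in non-treated mice, again highest in non-treated mice 3 and 4. Over all 10 mice its r with Sox2 was 0.381, with Prox1 0.378 and with Hey2 0.216 (permutation tests, adjusted p = 0.358, 0.358 and 0.626), and without the mice farthest from the median these were 0.186, 0.589 and 0.841. Spearman's rho was 0.309, 0.503 and 0.309 (permutation tests, adjusted p = 0.429, 0.206 and 0.429).

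Over all 10 mice, r with these markers was higher for each hair cell factor than for Sox2, Prox1 and Hey2. This order did not hold without non-treated mice 3 and 4, where Hey2 had 0.841. The r with the supporting cell level was 0.955 for Gfi1, 0.911 for Lhx3, 0.873 for Barhl1 and 0.863 for Pou4f3 (permutation tests, adjusted p = 0.00255, 0.00255, 0.00840 and 0.0120), and 0.719, 0.815, 0.468 and 0.346 without the 2 mice. The rho was 0.830, 0.867, 0.685 and 0.588 (permutation tests, adjusted p = 0.0237, 0.0220, 0.0792 and 0.136). For Lmx1a r was 0.776 and rho 0.794 (permutation tests, adjusted p = 0.0186 and 0.0298), and r was 0.723 without the 2 mice. Atoh1 and Ikzf2 lay below Lmx1a, with r of 0.717 and 0.581 (permutation tests, adjusted p = 0.0346 and 0.107). Their rho was 0.758 and 0.442 (permutation tests, adjusted p = 0.0432 and 0.272), and their r without the 2 mice was 0.527 and 0.135.

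Among the factors themselves, r of log2 CPM over the 10 mice was 0.899 between Gfi1 and Lhx3, 0.896 between Pou4f3 and Barhl1, 0.890 between Pou4f3 and Lhx3 and 0.875 between Pou4f3 and Gfi1. The pairs Sox2 and Hey2, Sox2 and Prox1, and Prox1 and Hey2 had r of 0.297, 0.438 and 0.486. These are descriptions over mice that share 2 high libraries.

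The genes whose log2 CPM was most like each factor over the 10 mice were named by the 3 highest r among 18328 genes. For Pou4f3 they were Cib3 (0.977), a gene of the mechanotransduction complex, Chdh (0.973) and Il17rb (0.971). For Gfi1 they were Loxhd1 (0.973), whose product sits in the hair bundle, the connexin gene Gjb6 (0.972) and Pgm5 (0.972). Barhl1 was nearest to Adgra3 (0.983), Prr36 (0.962) and App (0.961), and Lhx3 to Tnfrsf11b (0.982), Asap2 (0.976) and Zic5 (0.976). Among the 100 most similar of these 18328 genes, hair cell effectors numbered 9 of 23 for Pou4f3 and for Gfi1, 5 for Lhx3, 2 for Barhl1 and 1 for Ikzf2. Supporting cell markers were among them too, 3 of 15 for Gfi1, 2 for Lhx3, 1 each for Pou4f3 and Ikzf2 and 0 for Barhl1.

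The other 5 factors had 0 hair cell effectors and 0 supporting cell markers among their 100 most similar genes. Lmx1a was nearest to Fam135a (0.955), Etnppl (0.952) and the otic factor gene Pax2 (0.949). Sox2 was nearest to Cmtm8 (0.916), Pgghg (0.915) and Snx4 (0.907), Prox1 to Cntnap5a (0.965), Rgs6 (0.953) and Adra1d (0.948), and Hey2 to Msantd4 (0.945), Cebpzos (0.927) and Mageh1 (0.908). Atoh1 was nearest to Zmym3 (0.952), Wdr19 (0.940) and Tmem67 (0.915), and Ikzf2 to Hook3 (0.936), Gm830 (0.927) and Gm13594 (0.918).

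The hair cell effectors were lower by sign in 22 of 23 genes in NR-treated cochlea, with a median log2 fold change of -0.51. At an unadjusted p of 0.05, 3 were called lower and 0 higher: Loxhd1 (-0.90, standard error 0.33), Tomt (-0.63), which is needed for mechanotransduction, and Cdh23 (-0.68), a tip link cadherin. Myo7a, a motor of the hair bundle, had -0.51 (edgeR, unadjusted p = 0.0574), and the most abundant members were Myo6 (-0.26) and the synaptic gene Otof (-0.73, unadjusted p = 0.0687). The count of lower calls was 0 without non-treated mouse 3 or mouse 4, 11 without non-treated mouse 2 or mouse 5, 8 without non-treated mouse 1, 9 without NR-treated mouse 2, 1 or 2 without any other NR-treated mouse and 8 by DESeq2. The median was -0.32 without non-treated mouse 3, -0.27 without mouse 4 and 0.05 without both, with 1 gene then called higher and 0 lower. When the effector level entered the fit as a covariate, Pou4f3 stood at -0.04, and the other hair cell factors at 0.20 (Atoh1), 0.19 (Barhl1), 0.11 (Ikzf2) and -0.25 (Lhx3), all with 95% intervals that crossed 0. Gfi1 was at -0.24 (standard error 0.08, edgeR unadjusted p = 0.0140, adjusted p = 0.460).

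Of 15 supporting cell markers, 11 were lower by sign, 8 were called lower and 0 higher at an unadjusted p of 0.05, and the median log2 fold change was -0.37. They included Otoa (-0.996), Tectb (-1.43) and Tecta (-1.24), whose products belong to the tectorial membrane or its attachment, and the connexin genes Gjb2 (-0.52) and Gjb6 (-0.37). The count of lower calls was 1 without non-treated mouse 3 or mouse 4, 2 without NR-treated mouse 1 or mouse 5, 3 without NR-treated mouse 3 and 4 without NR-treated mouse 4. Without non-treated mice 3 and 4 together the median was -0.07, with 0 called lower and 2 higher. The supporting cell factors themselves, Lmx1a included, had a median of -0.21 with 0 of 4 called.

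Lmx1a was set beside strial marginal cells, the potassium-secreting epithelium of the cochlear duct. Their 6 markers were all lower by sign, with 3 called lower at an unadjusted p of 0.05 (Slc12a2 at -0.72, Atp1b2 at -0.53 and Kcne1 at -0.67) and a median of -0.57. Without non-treated mouse 4 the median was -0.30 with 2 called, and without mice 3 and 4 it was -0.16 with 1 called, while 5 were called without non-treated mouse 1 or mouse 2. The mean log2 CPM of these markers was 5.93, 6.51, 6.03, 6.41 and 6.13 in NR-treated and 6.20, 6.20, 6.76, 7.52 and 6.56 in non-treated mice 1 to 5. Non-treated mice 4, 3 and 5 and NR-treated mouse 2 were the 4 highest for these markers and for Lmx1a. The part of strial RNA in the difference of Lmx1a was not tested.

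Several factors are also made outside the sensory epithelium. Gfi1 acts in myeloid precursors, and 9 of 10 bone marrow myeloid markers were higher by sign in NR-treated mice (median 0.41, 0 called). Without NR-treated mouse 2 the median was 0.64 with 9 called higher, and without non-treated mouse 3 it was 0.27 with 0 called. Their mean log2 CPM was 6.03 to 7.94 in NR-treated and 6.27 to 7.73 in non-treated mice, lowest in NR-treated mouse 2 and non-treated mouse 3. The part of these cells in the values of Gfi1 was not tested. Lymphatic markers, relevant to Prox1, had a median of 0.09 over 6 genes with 0 called, and ranged from 3.11 to 3.63 and from 2.75 to 3.61, with the lowest value in non-treated mouse 3, the highest for Prox1.

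Glia make Sox2, and 10 Schwann and satellite glia markers had a median of 0.10 with 1 called lower (Cdh19, -0.36) and 0 higher. That call was lost without mouse 4 of either group. T cell markers, relevant to Ikzf2, had a median of 0.17 over 7 tested genes with 0 called, at mean log2 CPM of 0.49 to 1.83 and 0.79 to 1.54. Vestibular markers had a median of 0.13 over 4 genes with 0 called and lay between 1.32 and 3.44 in NR-treated and 1.41 and 3.33 in non-treated mice. The part of these cells in the levels of Sox2, Ikzf2 and Prox1 was not tested.

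All 6 skeletal muscle genes were higher by sign, 5 of them at an unadjusted p of 0.05 (median 4.23), and 3 of 4 adipocyte genes were called higher (median 2.19). Muscle genes were highest in NR-treated mice 3 and 5, at mean log2 CPM of 6.39 and 6.47. Of 7 spiral ganglion neuron genes, 1 was called higher (Tubb3, 0.49) and the median was 0.26, while 2, 3 and 4 were called without non-treated mouse 1, 2 and 5. Smooth muscle genes had a median of 0.06 over 5 genes and central nervous system genes -0.07 over 4 tested genes, each with 0 called. The part of these tissues in the values of the 10 factors was not tested.

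The genes listed for the Notch pathway, which keeps supporting cells from becoming hair cells, did not move in one direction. In whole cochlea, the cells that made these transcripts were not resolved. Of 20 tested genes, 10 were higher and 10 lower by sign, and the median log2 fold change was 0.00. At an unadjusted p of 0.05, 3 were called higher and 1 lower, and the higher calls numbered 1 without NR-treated mouse 1, 3 or 5 and 5 without non-treated mice 3 and 4. The ligand genes Dll4 and Jag2 had log2 fold changes of 0.47 (standard error 0.14) and 0.16 (standard error 0.07), the target gene Hey1, a relative of Hey2, had 0.22 (standard error 0.09), and Lfng, whose product adds sugars to Notch, had -0.22 (standard error 0.09). All had an edgeR adjusted p of at least 0.423. The most abundant receptor, Notch2, had -0.13 (edgeR, unadjusted p = 0.269).

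Other transcription factors of the inner ear were lower by sign in 25 of 31 tested genes, with a median of -0.14. At an unadjusted p of 0.05, 6 were called lower and 2 higher, or 8 of 31 where 9.71% of all genes were called. Mitf, the pigment cell factor active in strial intermediate cells, was at -0.63 (standard error 0.14, edgeR unadjusted p = 9.04e-04, adjusted p = 0.370), Tbx2, a T-box factor that acts in inner hair cells, at -0.46 (standard error 0.13) and Pax2, an otic paired-box factor, at -0.85 (standard error 0.30). Eya1, a cofactor of otic development, was at -0.31 (standard error 0.11), and Sox10, which marks glia and otic epithelium and was the most abundant of the list, at -0.21 (standard error 0.10). Id3, the second most abundant, had 0.12 (standard error 0.06, edgeR unadjusted p = 0.0865). The 2 genes called higher were Id1 (0.25, standard error 0.10), which like Id3 encodes an inhibitor of helix-loop-helix factors, and Etv5 (0.25, standard error 0.11), an ETS factor downstream of FGF signaling. Without non-treated mice 3 and 4 the median of the list was 0.02, with 2 called lower and 1 higher. When 1 mouse was left out, 2 (without non-treated mouse 4) to 8 (without NR-treated mouse 2 or non-treated mouse 1 or 2) were called lower, with 3 without NR-treated mouse 4 or non-treated mouse 3, and 4 without NR-treated mouse 1, 3 or 5. The median was -0.05 without non-treated mouse 3, -0.09 without mouse 2 or mouse 4 and -0.18 without mouse 1 or mouse 5.

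Reads were counted without regard to strand, so where the exons of a factor and an antisense partner overlap, reads cannot be assigned to either by strand. In GENCODE M21, Gfi1 shares 101 exon bases (3.17%) with A430072P03Rik, Lhx3 188 (6.17%) with Gm27196, Prox1 133 (1.59%) with Prox1os and Ikzf2 144 (1.24%) with Gm29114. The partners had few reads of their own, 6 to 29, 6 to 41, 15 to 64 and 0 to 1 per mouse. On the log2 scale the fold change was -0.88 for Gm27196 (standard error 0.42, edgeR unadjusted p = 0.0578), -0.21 for A430072P03Rik and -0.26 for Prox1os, whose r with Prox1 over the mice was 0.682.

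Gm28172 at Prox1 and Gm28112 and Gm29112 at Ikzf2 share 0 exon bases with them and had at most 7, 2 and 0 reads. Sox2 lies inside Sox2ot on the same strand but shares 0 exon bases with it. Sox2ot, a long noncoding RNA, stood at 10.9 and 10.0 CPM in NR-treated and non-treated mice (log2 fold change 0.13, edgeR unadjusted p = 0.269), with an r of -0.14 to Sox2.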

How the data were processed

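RNA-seq of the cochlea of 5 NR-treated and 5 non-treated mtKeima mice was analysed. The authors deposited raw counts of reads for 54532 genes, in 1 file per mouse. Per the submitters' notes and the methods, poly(A) libraries were sequenced by Novogene, aligned to mm10 with STAR version 2.6.1d and counted with featureCounts version 1.5.0 in default mode, without strand. The annotation release is not given in the sources used here. Symbols, coordinates and lengths are per the file headers, and overlaps came from GENCODE M21. The authors used DESeq2 version 1.26.0.

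Counts were normalized by TMM in edgeR version 4.0.16 (R version 4.3.3), filtered with filterByExpr (18329 of 33224 genes with at least 1 read) and tested by the quasi-likelihood test, with NR-treated over non-treated as the contrast and no covariate. Log2 CPM used a prior count of 2. TPM used the deposited lengths. The depth was 17060379 to 24419230 counts per mouse and the common biological coefficient of variation was 0.207. Permutation tests were two-sided, exact over all labelings for group differences and with 100000 permutations for correlations. Intervals are 95% from the t distribution. p-values measure the spread between these mice. No 2 libraries had the same counts within sampling noise, and the scripts were tested on simulated data. python was version 3.11.15.

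The members and lists were chosen with earlier results of these data known, and the hair cell, supporting cell and muscle lists overlap what those results showed. Named genes are the 10 factors, up to 4 genes of a list with the smallest p and up to 2 of its most abundant, overlapping genes, and the 3 genes most like each factor. One list gene that this rule names is not reported here, and for some lists fewer genes are named than the rule allows. Members of lists outside that rule are named to describe a list and were chosen after their values were seen. Alternatives were DESeq2 version 1.42.0 and its size factors, total-count scaling, other filters, replicate number as a blocking term, robust dispersion and leaving out each mouse. Leaving out non-treated mice 3 and 4 together and the effector level as a covariate were chosen after seeing the data.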

Additional observations from a re-analysis of the deposited data

Results flagged for a closer look

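For 1 of 20 groups, 10 factors in each of 2 treatments, a single mouse lay far from the rest by Dixon's test. Lmx1a had a log2 CPM of 5.56 in NR-treated mouse 2, or 47.2 CPM, where the other 4 NR-treated mice had 21.4 to 26.6 CPM. The gap to the nearest mouse was 0.722 of the group's range, above the critical value for 5 samples. About 1 in 20 groups exceeds this value by chance, so 1 of 20 is the number chance gives. The same mouse was the highest of its group for Pou4f3, Gfi1, Barhl1, Lhx3, Hey2 and the hair cell effector level and for the strial markers.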

How the results depend on the processing

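For the log2 fold changes of Pou4f3, Gfi1, Lhx3, Prox1 and Lmx1a, the lower direction was kept in all alternatives but 1, in which Pou4f3 turned. The exception came without non-treated mice 3 and 4, where log2 fold changes turned positive for Atoh1 (0.33), Pou4f3 (0.10), Ikzf2 (0.18), Barhl1 (0.37) and Sox2 (0.083), and differences of mean log2 CPM did for Atoh1 (0.26), Pou4f3 (0.071), Ikzf2 (0.17), Barhl1 (0.33) and Sox2 (0.10). The log2 fold change of Atoh1 there is from the fit of all genes with a read. With the hair cell effector level as a covariate, log2 fold changes were positive for Atoh1 (0.20), Ikzf2 (0.11), Barhl1 (0.19) and Sox2 (0.026). With total-count scaling, Sox2 (0.012, and 0.025 as a difference) and Hey2 (0.0052) turned. The cause was not tested. Leaving out 1 mouse gave ranges that crossed 0 for the log2 fold changes of Atoh1 (-0.43 to 0.018), Ikzf2 (-0.13 to 0.061), Sox2 (-0.11 to 0.067) and Hey2 (-0.078 to 0.049) and for the differences of Atoh1 (-0.30 to 0.047), Ikzf2 (-0.12 to 0.078), Barhl1 (-0.30 to 0.031), Sox2 (-0.11 to 0.070) and Hey2 (-0.095 to 0.032). It gave -0.53 to -0.21 for Pou4f3, -0.58 to -0.34 for Gfi1, -0.84 to -0.38 for Lhx3, -0.51 to -0.29 for Prox1 and -0.78 to -0.33 for Lmx1a.

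The number of factors called lower at an unadjusted p of 0.05 was 1 with all mice, 2 by DESeq2 and 0 without non-treated mice 3 and 4. It was 0 to 3 when 1 mouse was left out. The number was highest without NR-treated mouse 2, where 1026 of 18586 genes were called lower. It was 0 without NR-treated mouse 1 (521 of 18534 genes lower), NR-treated mouse 5 (638 of 18542) or non-treated mouse 3 (558 of 18512). The median of the hair cell effectors went from -0.51 to 0.05 without non-treated mice 3 and 4.

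Over all genes, 886 were higher and 894 lower at an unadjusted p of 0.05. The counts were 1414 higher when every gene with a read was tested and 1188 higher with 574 lower under total-count scaling. Leaving out 1 mouse gave 669 to 1414 higher and 484 to 1059 lower, and 0 to 1 higher and 0 to 0 lower at an adjusted p of 0.05. At that adjusted p, edgeR called 0 in each direction and DESeq2 52 higher and 50 lower, none of them 1 of the 10 factors, whose smallest DESeq2 adjusted p was 0.291, for Gfi1.

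Samples of the 2 groups share replicate numbers. Deviations from the group means had correlations from -0.22 to 0.17 in same-numbered mice and from -0.39 to 0.28 in differently numbered mice. No pairing by number was seen, but so few pairs cannot exclude one. With the replicate number as a block, 879 genes were higher and 776 lower at an unadjusted p of 0.05, and 1 factor was called lower, Gfi1 (-0.46, edgeR unadjusted p = 0.0160). Depth limits Atoh1 most, at 5 to 17 reads per mouse.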

Other observations

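Among the 4 supporting cell factors, Prox1 and Lmx1a had wide spreads in both groups, with coefficients of variation of 26.2% and 37.9% in NR-treated and 24.7% and 34.3% in non-treated mice, while those of Hey2 were 15.5% and 6.25% and those of Sox2 12.2% and 19.0%. For Pou4f3, Gfi1 and Barhl1 the spread was wider in non-treated mice (40.9%, 31.0% and 48.4%) than in NR-treated mice (22.4%, 12.1% and 21.6%), and for Lhx3 it was not (35.9% and 41.5%). The difference in spread was not tested, and non-treated mice 3 and 4 hold the high values. Hes5, a Notch target gene named after its values were seen, stood at 0.781 ± 0.254 CPM (SD, n = 5) with NR and 0.492 ± 0.186 CPM (SD, n = 5) without, and its log2 fold change was 0.66 (standard error 0.32, edgeR unadjusted p = 0.0658, adjusted p = 0.542).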
